A study of Mus musculus with 56 samples.

Results

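Selenop, the glutathione peroxidases Gpx1, Gpx3 and Gpx4 and the thioredoxin reductases Txnrd1 and Txnrd2 were examined, 6 of the 15063 genes that the array measures. All 6 encode selenoproteins. They were selected by gene symbol, with earlier results of these arrays known, on their OV to 3T3 ratios in each target preparation, so those ratios are given here as a description and without a test. Each of the 6 is represented by 1 probe.

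The study asked how far amplified RNA keeps the expression differences seen in unamplified RNA. Total RNA came from 2 mouse cell lines, the ovarian surface epithelium line OV and the fibroblast line 3T3. The methods describe no separate RNA preparations for the comparisons of the lines, so the arrays are taken below to share RNA. Unamplified cDNA was made from 100 μg of total RNA. Amplified targets were made from 10 ng by 3 rounds of T7 transcription (IVTIII, a linear method that yields cRNA) or by PCR, either after polyadenylation of short 3′ cDNA (global amplification, GA) or after template switching at the 5′ end (SMART and its modified form SM37). SMART and GA were also run from 10 pg, about the total RNA of 1 cell. From 10 ng, only part of the product was carried on between steps. For the PCR targets this was done to adjust the RNA to the content of 1 cell. The stated amounts are thus inputs to the first step. OV and 3T3 targets carried Cy5 and Cy3 and shared an array, with the dyes exchanged on the arrays numbered 2 and 4, which gave 4 arrays for each of 7 comparisons and 28 arrays in all. According to the methods, each set of 4 arrays covers 2 replicates per line with dye swaps, so the n beside an SD counts arrays and not independent amplifications, and the limma calls below treat the arrays as independent. Other arrays set an OV target against itself (self-self) or against a second, separately prepared OV target (replicas), and 4 arrays compared replicas from small pools of mouse embryonic neural stem cells. No label describes separate cultures of OV or 3T3, so the spread between arrays is that of amplification, labelling and hybridization, and fewer expressing cells cannot be told apart from less RNA per cell.

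All values are log2 ratios, in which 1 unit is a 2-fold difference. They are given as OV over 3T3, or as replica 1 over replica 2, with the deposited ratio read as Cy5 over Cy3. The methods state the dye order in opposite ways in different places, so this direction is likely but not certain, and if it were the other way every sign would turn. Cdkn2a, a cell cycle inhibitor gene that 3T3 cells are known to have lost, was higher in OV on all 4 unamplified arrays, by 1.58 ± 0.11 (SD, n = 4). On the GA arrays from 10 pg it was at -0.25 ± 0.17 (SD, n = 3), and none of 6 tested ovarian surface epithelium markers was called there in limma (3 at an unadjusted p under 0.05), with a median of -0.26 against 2.93 for the 10 tested in unamplified cDNA. The direction of the GA arrays from 10 pg was thus not borne out by these genes, and their ratios are given as labelled. Over all genes, unamplified arrays of opposite dye orientation correlated at -0.875 to -0.774 before turning and those of the same orientation at 0.836 to 0.884. The correlations of opposite arrays in SMART from 10 ng reached from -0.702 to 0.0927, that is, 1 pair did not correlate once turned. The labels contradict themselves for array 1 of IVTIII, where both channels are named 3T3, and array 2 of GA from 10 ng, which is described as replicas. The dye statement and the named sources were followed.

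Selenoproteins carry selenocysteine, an amino acid that is inserted at a UGA codon when the mRNA holds a SECIS element downstream. Selenop is the secreted selenium carrier of plasma and is itself rich in selenocysteine. Glutathione peroxidases reduce peroxides with glutathione: Gpx1 is the abundant cytosolic form, Gpx3 is secreted, and Gpx4 reduces lipid hydroperoxides in membranes and holds back ferroptosis. Thioredoxin reductases return oxidized thioredoxin to its active form with NADPH, Txnrd1 in the cytosol and Txnrd2 in mitochondria.

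Promoters of Selenop and Txnrd1, which were respectively higher and lower in OV, are shown because each held a searched motif. The RefSeq table (GRCm38.p6) holds 13 windows for the 6 genes, each of 300 bases, 250 before and 50 after an annotated start. Both strands were searched for the box TATAAA, for TGTTTAC, the core that FoxO factors bind, and for TGACNNNGC, the core of the antioxidant response element that Nrf2 binds. Capitals mark the matches. The Selenop window lies at chr15:3270727-3271026 and the Txnrd1 window at chr10:82858956-82859255, both on the plus strand.
Selenop: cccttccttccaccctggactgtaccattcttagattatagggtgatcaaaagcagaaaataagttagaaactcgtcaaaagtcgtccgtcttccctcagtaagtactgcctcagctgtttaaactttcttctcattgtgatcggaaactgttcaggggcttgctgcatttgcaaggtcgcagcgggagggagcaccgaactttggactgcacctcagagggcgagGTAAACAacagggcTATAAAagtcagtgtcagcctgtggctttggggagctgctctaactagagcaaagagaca
Txnrd1: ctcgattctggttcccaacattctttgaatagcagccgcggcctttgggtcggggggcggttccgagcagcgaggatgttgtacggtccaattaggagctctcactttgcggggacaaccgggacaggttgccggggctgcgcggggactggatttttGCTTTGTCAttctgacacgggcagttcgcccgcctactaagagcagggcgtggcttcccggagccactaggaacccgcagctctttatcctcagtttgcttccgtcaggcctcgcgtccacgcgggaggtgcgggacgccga
The Selenop window held TATAAA on the plus strand and GTAAACA, the minus strand form of the FoxO core. The Txnrd1 window held 1 match of the antioxidant response element core, on the minus strand. None of the 3 motifs was found in the other 11 windows of the 6 genes. Of all 32851 windows of this length in the table, 13.6% held TATAAA, 3.65% TGTTTAC and 12.4% TGACNNNGC. The arrays measured RNA only, so these matches describe the sequence and nothing more.

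Selenop stood out among the 6 genes. In unamplified cDNA its log2 ratios were 3.66, 3.28, 3.96 and 3.50 on arrays 1 to 4, all far above 0 in both dye orientations. The mean was 3.60 ± 0.29 (SD, n = 4), a 12.1-fold higher level in OV, and only 7 of the 10185 genes with a value on every array had a higher mean. In GA from 10 ng the ratios were 1.79, 1.91, 0.92 and 1.74, with a mean of 1.59 ± 0.45 (SD, n = 4). In SMART from 10 ng they were 0.76, 1.29, 1.78 and 1.38, with a mean of 1.30 ± 0.42 (SD, n = 4). Every array of both methods thus had more Selenop in OV, and none reached the lowest unamplified value. As fold differences the means were 3.01 in GA and 2.46 in SMART.

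The remaining targets gave smaller Selenop ratios. In SMART from 10 pg they were 0.18, 1.00, 0.51 and 0.99, with a mean of 0.67 ± 0.40 (SD, n = 4). In SM37 they were 0.70, 0.57, 0.20 and 0.30, with a mean of 0.44 ± 0.23 (SD, n = 4). Both sets lay above 0 on all 4 arrays. In GA from 10 pg the ratios were 0.35, 0.57, -0.13 and 0.51, with a mean of 0.33 ± 0.32 (SD, n = 4). In IVTIII they were 0.08, -0.09, -0.25 and -0.12, with a mean of -0.09 ± 0.14 (SD, n = 4). The gene was measured on all 4 IVTIII arrays, and its ratio there was close to 0.

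Ordered by mean, Selenop ran from unamplified cDNA through GA and SMART from 10 ng, SMART from 10 pg, SM37 and GA from 10 pg to IVTIII. The gap of 2.01 between unamplified cDNA and GA was the only one between neighbours whose arrays did not overlap. As a share of the unamplified log2 ratio, the mean was 44.2% in GA, 36.1% in SMART, 18.7% in SMART from 10 pg, 12.3% in SM37, 9.06% in GA from 10 pg and -2.53% in IVTIII.

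**Figure D1:**
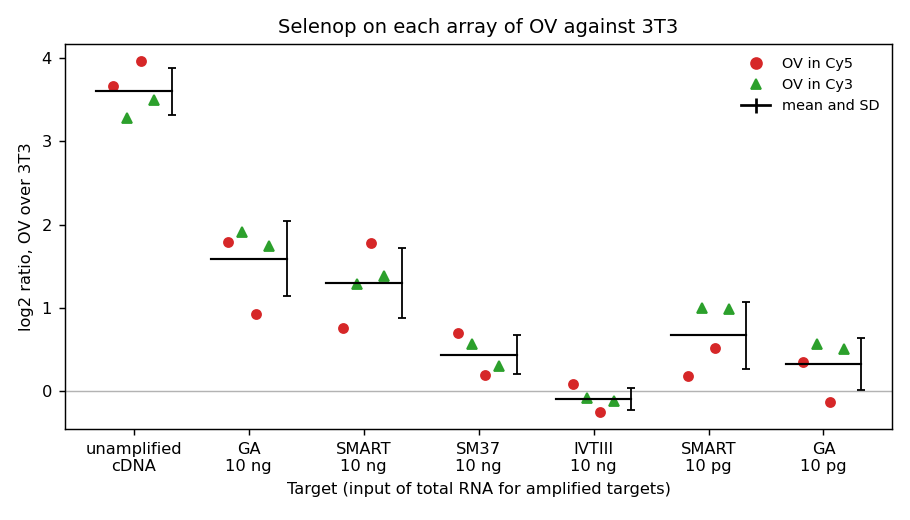
Selenop on the 28 arrays of OV against 3T3. The vertical axis is the log2 ratio of OV over 3T3, circles are arrays with OV in Cy5, triangles arrays with OV in Cy3, and bars give the mean and SD of 4 arrays. The unamplified arrays sit between 3.28 and 3.96 and the IVTIII arrays between -0.25 and 0.08.

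Other genes with large unamplified ratios also gave smaller ones in the amplified targets. Of the genes over 8-fold higher in OV in unamplified cDNA, the median share of the log2 ratio kept was 34.4% in SMART from 10 ng (17 genes), 40.4% in GA (15 genes), 22.4% in SM37 (13 genes) and 40.0% in IVTIII (12 genes). The sets differ because each needs a value on every array of both targets, and all were picked by a high unamplified ratio. Selenop kept a smaller share than every other gene of the set in IVTIII and in SMART from 10 pg, where the median over 9 genes was 33.0%. The 12 such genes measured in GA from 10 pg had a median of -1.83%, on the arrays whose direction the line markers did not bear out. Of the 17 genes in SMART from 10 ng 9 kept less than Selenop, in GA 8 of 15, in SM37 3 of 13 and in GA from 10 pg 7 of 12.

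The glutathione peroxidases did not move as a group. Gpx1, the cytosolic enzyme, had values on only 13 of the 28 arrays. In unamplified cDNA these were -0.02, 0.08 and 0.01 on arrays 1 to 3, all close to 0, with a mean of 0.03 ± 0.05 (SD, n = 3). In IVTIII all 4 arrays gave a value, -0.41, -0.40, 0.09 and -0.18, with a mean of -0.22 ± 0.24 (SD, n = 4), and the sign varied between arrays. SM37 gave 0.64 and 0.21 on arrays 3 and 4, GA from 10 pg 0.21 and 0.26 on arrays 2 and 3, and 1 array each gave 0.12 in SMART and -0.07 in GA from 10 ng. SMART from 10 pg gave none. In the order of the Gpx1 means, from SM37 down to IVTIII, most neighbours rest on 1 to 3 arrays and were read in no order.

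Gpx3, the secreted enzyme, was lower in OV in unamplified cDNA, with log2 ratios of -0.60, -0.44, -0.80 and -0.44 and a mean of -0.57 ± 0.17 (SD, n = 4), or 1.49-fold. In GA from 10 ng the ratios were -0.93, -1.17, -0.74 and -0.87, with a mean of -0.93 ± 0.18 (SD, n = 4). In IVTIII they were -1.16, -1.41, -1.04 and -0.96, with a mean of -1.14 ± 0.20 (SD, n = 4). All 4 IVTIII arrays were below all 4 unamplified arrays, the opposite of the pattern of Selenop, whose ratio was nearest to 0 in IVTIII. In SM37 the ratios were -0.59, -0.84, -0.61 and -0.92, with a mean of -0.74 ± 0.16 (SD, n = 4).

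In SMART from 10 ng Gpx3 followed the dyes. Its ratios were 0.14 and -0.01 on arrays 1 and 3, with OV in Cy5, and -0.42 and -0.85 on arrays 2 and 4, with OV in Cy3, so that both orientations did not overlap. The mean was -0.29 ± 0.45 (SD, n = 4). At 10 pg, SMART gave -0.24, -0.18 and -0.43 and GA gave -0.89, -1.65 and -0.81, each on arrays 2 to 4. Of the 26 arrays that measured Gpx3, the only one with a ratio above 0 was array 1 of SMART from 10 ng. Ordered by mean, SMART from 10 pg and 10 ng came nearest to 0, then unamplified cDNA, SM37, GA from 10 ng, GA from 10 pg and IVTIII, and all neighbours in this order overlapped.

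Gpx4, the lipid hydroperoxide reductase, was slightly higher in OV in unamplified cDNA, at 0.40, 0.11, 0.08 and 0.34, with a mean of 0.23 ± 0.16 (SD, n = 4). SMART from 10 ng gave 0.22, 0.30, 0.27 and 0.17, with a mean of 0.24 ± 0.06 (SD, n = 4). SMART from 10 pg gave 0.41, 0.14, 0.16 and 0.15, with a mean of 0.22 ± 0.13 (SD, n = 4). These 12 ratios were all above 0 and overlapped. Of the members measured in all 3 targets, Gpx4 had the least difference in mean between unamplified cDNA and SMART at both inputs.

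Elsewhere Gpx4 was less steady. GA from 10 ng gave 0.43, 0.32, 0.14 and -0.18, and IVTIII gave -0.20, -0.17, 0.18 and 0.70, with means of 0.18 ± 0.26 and 0.13 ± 0.42 (SD, n = 4 each) and mixed signs. In SM37 the ratios of -0.02, -0.06, -0.08 and -0.28 were all below 0, with a mean of -0.11 ± 0.11 (SD, n = 4). In GA from 10 pg they were -0.93, -0.64, -0.63 and -1.02, with a mean of -0.80 ± 0.20 (SD, n = 4), or 1.74-fold lower in OV. This was the only step in the Gpx4 order at which neighbours did not overlap, a gap of 0.70 below SM37.

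Txnrd1, the cytosolic thioredoxin reductase, was lower in OV in unamplified cDNA at -0.66, -0.35, -0.57 and -0.54, with a mean of -0.53 ± 0.13 (SD, n = 4), or 1.45-fold. SMART from 10 ng gave -0.31, -0.61, -0.48 and -0.50, with a mean of -0.48 ± 0.12 (SD, n = 4). This is 89.1% of the unamplified log2 ratio, where Selenop kept 36.1% on the same arrays. GA from 10 ng gave -0.99, -0.82, -1.27 and -1.40, with a mean of -1.12 ± 0.26 (SD, n = 4), and every one of its arrays was below every unamplified array. SM37 gave -0.49, -0.56, -0.80 and -1.004 and IVTIII gave -0.30, -0.29, -0.02 and -0.37, with means of -0.71 ± 0.24 and -0.25 ± 0.15 (SD, n = 4 each). All 20 ratios from unamplified cDNA and from 10 ng were below 0.

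The 10 pg targets departed from this. SMART from 10 pg gave no Txnrd1 value on any array. GA from 10 pg gave -0.27, 2.45 and 2.61 on arrays 2, 3 and 4. Arrays 3 and 4 carry opposite dyes and were both far above 0, while array 2 was near the unamplified values. The mean of 1.59 had an SD of 1.62 (n = 3) and does not describe any of the arrays.

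Txnrd2, the mitochondrial reductase, was lower in OV in unamplified cDNA at -0.87, -0.17, -0.39 and -0.39, with a mean of -0.46 ± 0.30 (SD, n = 4). GA from 10 ng gave 0.19, 0.15, 0.14 and 0.05, with a mean of 0.14 ± 0.06 (SD, n = 4), all above 0 and thus of the opposite sign on every array. SM37 gave 0.26, 0.41, -0.04 and 0.26, with a mean of 0.22 ± 0.19 (SD, n = 4). SMART gave -0.16, 0.11, -0.36 and -0.01 and IVTIII gave 0.12, -0.29, 0.11 and -0.58, with means of -0.11 ± 0.20 and -0.16 ± 0.34 (SD, n = 4 each). In IVTIII both arrays with OV in Cy5 were above 0 and both with OV in Cy3 below. GA from 10 pg gave 0.45, 0.11 and -0.67 on arrays 2 to 4, and SMART from 10 pg gave no value. Neighbours in the order of means, from SM37 down to unamplified cDNA, all overlapped.

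**Figure D2:**
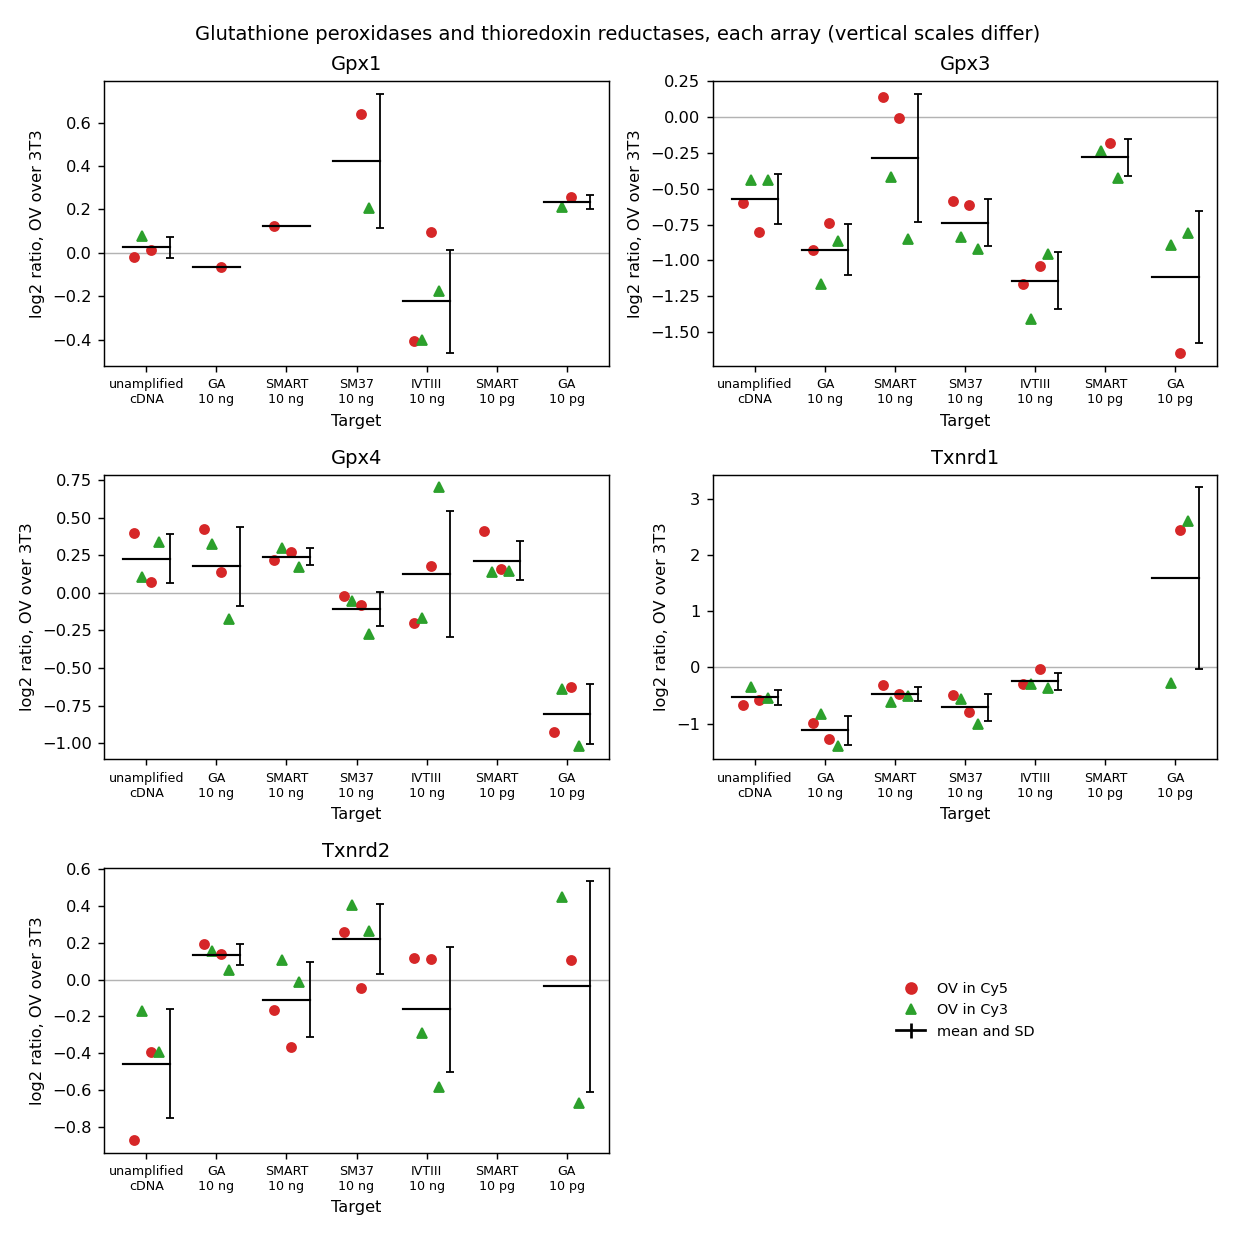
The 5 peroxidases and reductases on each array of OV against 3T3, with the log2 ratio on vertical axes that differ between panels. Circles are arrays with OV in Cy5, triangles arrays with OV in Cy3, and bars the mean and SD of the arrays with a value. Gpx3 and Txnrd1 lie below 0 in most targets, Gpx4 drops to -0.80 in GA from 10 pg, and Txnrd1 spreads from -0.27 to 2.61 there.

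A gene was called where limma gave a log odds of differential expression (LOD) above 0 and all 4 arrays held a value. For the members these calls are a description, since the ratios chose them. In unamplified cDNA 5 of the 6 members had all 4 values and 3 were called: Selenop higher, and Gpx3 and Txnrd1 lower. Of all 10185 genes 8.81% were called higher and 7.3% lower. In SMART from 10 ng Selenop was called higher and Txnrd1 lower, against 2.53% and 1.01% of all genes. In GA from 10 ng Selenop was called higher and Gpx3 and Txnrd1 lower, against 2.09% and 6.14%. In SM37 Gpx3 and Txnrd1 were called lower, against 3.91% called higher and 9.1% lower overall. In IVTIII all 6 members had 4 values and Gpx3 was called lower, against 11.6% and 10.4%. At 10 pg 2 members, Selenop and Gpx4, had all 4 values in either method and neither was called, with 6.04% higher and 2.93% lower overall in SMART and 2.73% and 2.71% in GA. Some of these calls depended on single arrays, while those in GA and IVTIII from 10 ng held without any 1 array. In unamplified cDNA Selenop alone was called without array 1, 3 or 4, and Selenop and Txnrd1 without array 2, so that Gpx3 lost its call whichever array was left out. Txnrd1 lost its call without array 2, 3 or 4 in SMART from 10 ng and in SM37. With arrays 1 and 2 and arrays 3 and 4 averaged as assumed dye-swap pairs, Selenop was the only member called in unamplified cDNA, SMART from 10 ng and GA from 10 ng, Gpx3 the only one in IVTIII, and 0 were called in SM37. In SMART from 10 pg Selenop was then called, as it also was without array 1.

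Members also differed in how often they were measured. Over all 56 arrays of the series, Gpx4 had a value on 55, Selenop and Gpx3 on 53, Txnrd1 on 47, Txnrd2 on 46 and Gpx1 on 20, where the median gene had 34. The reason for a missing value is not given in the sources used here.

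Replica arrays show how far the same genes moved when both channels held the same RNA. According to the paper, both arrays of an amplified replica pair are dye swaps of the same pair of targets. Equal signs on both arrays therefore repeat the same comparison of amplifications and are not independent. In unamplified cDNA the single OV replica array gave between -0.02 for Selenop and 0.15 for Gpx4, with Gpx1, Gpx3, Txnrd1 and Txnrd2 at 0.06, 0.09, 0.05 and 0.03. On the self-self array of unamplified cDNA Selenop was at -0.12 and Gpx4 at 0.18. On the GA self-self array the members ran from -0.05 for Txnrd1 to 0.25 for Gpx1. The farthest from 0 on any self-self array was Txnrd2 in IVTIII at -0.46, a size exceeded by 1.2% of the genes on that array.

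In SMART replicas Selenop stayed near 0 at 10 ng, with -0.29 and -0.06, and at 100 pg, with 0.21 and -0.01. At 10 pg it was at -0.20 and 0.43. The GA replicas spread more. Selenop was at 0.17 and 1.15 from 10 ng, at 0.10 and 0.76 from 100 pg and at -0.67 and -0.27 from 10 pg. The value of 1.15 falls within the range of Selenop on the GA arrays of OV against 3T3 (0.92 to 1.91), although both channels held OV, and 2.11% of the genes on that array had a larger ratio. In SM37 replicas Selenop was at 0.08 and 0.47, and in IVTIII at 0.12 and 0.01.

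Gpx4 differed between the replicas in GA at low input. Both arrays of GA from 100 pg gave ratios below 0, at -0.71 and -0.82, and both from 10 pg gave ratios above 0, at 0.66 and 0.83. Farther from 0 were 6.28% and 6.99% of the genes from 100 pg, and 26.9% and 10% from 10 pg. The Gpx4 differences between amplifications of the same OV RNA were about as large as that of -0.80 between OV and 3T3 in GA from 10 pg. From 1 ng the GA replicas were at 0.08 and 0.02. In SMART the Gpx4 replicas lay between -0.18 and 0.13 at every input from 10 ng to 10 pg.

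Txnrd1 was above 0 on both replica arrays of GA from 10 pg, at 0.72 and 0.59, and of SMART from 10 pg, at 0.41 and 0.57. Farther from 0 were 24.5% and 17% of the genes on these GA arrays, and 24.2% and 10.6% on the SMART arrays. In GA from 100 pg the 1 Txnrd1 value was 0.99, a size exceeded by 2.62% of the genes. In GA from 10 ng its 2 values, -0.76 and 0.76, were of equal size and opposite sign after turning, that is, on the same side of the dyes. Txnrd2 was at 0.34 and 0.33 in GA from 100 pg and at 0.39 and 0.56 in GA from 10 pg. Farther from 0 were 21.3% and 29.1% of the genes from 100 pg, and 41.2% and 18.5% from 10 pg. Gpx3 had the narrowest range over the picogram replicas among members with a value on all 8 arrays, between -0.17 and 0.10 in SMART and GA at 100 pg and 10 pg.

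In the neural stem cell pools replicas of Selenop were at -0.17 and 0.22 in GA and at 0.27 and 0.06 in SMART. Gpx4 was at -0.68 and -0.41 in GA, both below 0, and at -0.15 and 0.02 in SMART. On the GA arrays 9.51% and 23.8% of the genes were farther from 0 than Gpx4. Txnrd2 was at -0.32 and -0.40 in SMART and at 0.04 and -0.03 in GA. On the SMART arrays 17.7% and 7.95% of the genes were farther from 0 than Txnrd2. The label and the methods give different numbers of cells for these pools, so no number is stated.

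**Figure D3:**
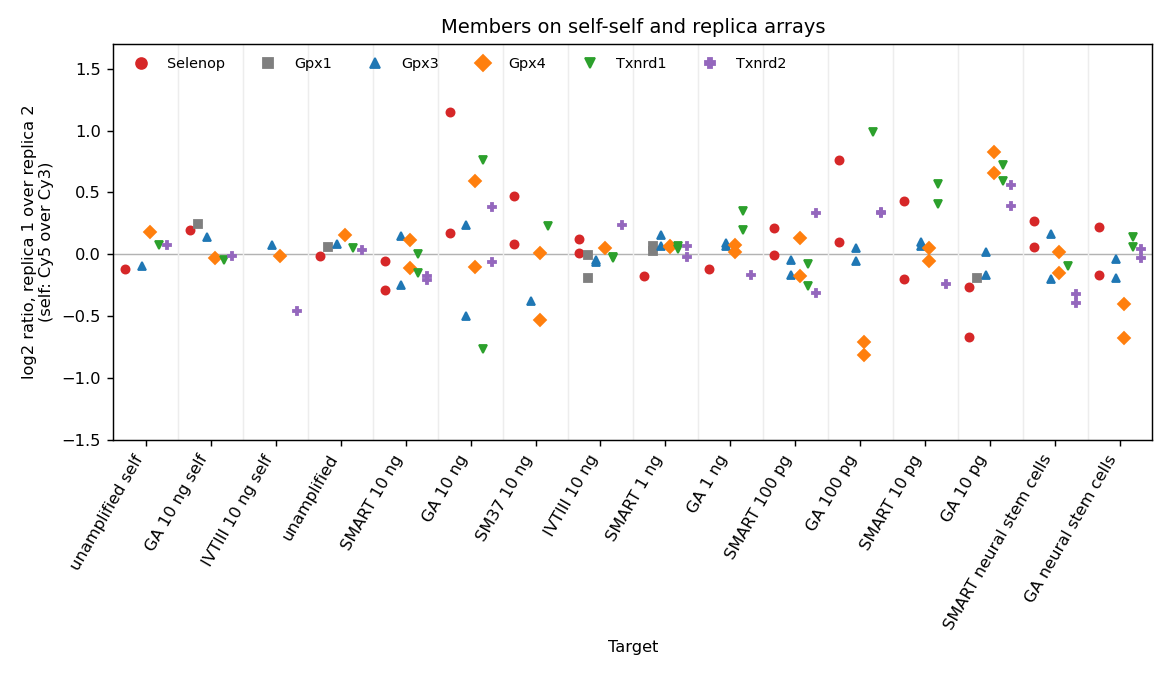
The 6 genes on self-self and replica arrays, where both channels held the same RNA source. The vertical axis is the log2 ratio of replica 1 over replica 2, or of Cy5 over Cy3 for self-self arrays, and each marker is 1 array. GA replicas spread most, with Selenop at 1.15 from 10 ng and Gpx4 at -0.82 from 100 pg and 0.83 from 10 pg.

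Related genes were taken from 6 lists of selenium and redox biology. Of their 74 genes 67 had a probe and 60 had all 4 values in unamplified cDNA, where 5 were called higher in OV and 6 lower, beside 8.81% and 7.3% of all genes. The median log2 ratio of the 60 genes was -0.12, against -0.00375 over all genes. The adjusted p-values below are those of limma with Benjamini-Hochberg adjustment over all genes tested.

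None of the other selenoproteins was called by the LOD in limma: of 18 in the list 14 had all 4 values, and their median was 0.09. At an unadjusted p under 0.05 10 of the 14 passed, beside 5715 of all 10185 genes. At an adjusted p under 0.05 8 of the 14 passed, beside 4973 of all genes. Their range ran from -0.60 ± 0.24 for Txnrd3, the reductase of testis, to 0.54 ± 0.27 for Selenon, a protein of the endoplasmic reticulum (SD, n = 4 each). Their limma adjusted p-values were 0.00394 and 0.00839. Sephs2, which makes the selenium donor for selenocysteine and is itself a selenoprotein, had a mean of -0.17 ± 0.10 (limma, adjusted p = 0.0742).

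Among genes of selenocysteine insertion and selenium uptake, 3 of the 9 tested were called, all lower in OV. Of all genes 8.81% were called higher and 7.3% lower. Lrp8 (apolipoprotein E receptor 2), a receptor that takes up Selenop, had the lowest mean at -1.60 ± 0.66 (SD, n = 4; limma, adjusted p = 0.00258), with arrays between -2.12 and -0.64. Its ratio was thus opposite in sign to that of Selenop on every unamplified array. In SMART from 10 ng it was at -0.43 ± 0.15 on 3 arrays, and it had at most 1 value in GA, SM37 and IVTIII from 10 ng. Lrp2 (megalin), the other Selenop receptor, was at 0.35 ± 0.12 and not called. Eefsec, the elongation factor for selenocysteine, was at -0.48 ± 0.11 (limma, adjusted p = 0.00213) and was also called lower in SM37 and IVTIII, at -0.86 ± 0.20 and -0.75 ± 0.11. Its unamplified call was lost without any 1 array, with arrays scaled to a common spread, with assumed dye-swap pairs averaged and with a dye term. Ncl (nucleolin), which can bind the SECIS element among many other RNAs, was at -0.80 ± 0.14 (limma, adjusted p = 0.000559). Its mean was also below 0 in SMART at both inputs, in SM37 and in GA from 10 ng, where it was called. In IVTIII it was at 0.42 ± 0.18, above 0 on all 4 arrays and not called, and in GA from 10 pg at 1.61 on 2 arrays. Secisbp2, the SECIS binding protein, was at 0.14 ± 0.13 (limma, adjusted p = 0.162).

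Of 4 glutathione peroxidases without selenocysteine 2 were tested, and Gpx8, an enzyme of the endoplasmic reticulum, was called higher at 0.50 ± 0.04 (SD, n = 4; limma, adjusted p = 0.00104). In the thioredoxin system 3 of 12 tested genes were called, 2 higher and 1 lower. Of all genes 8.81% were called higher and 7.3% lower. Txn1, the thioredoxin that Txnrd1 reduces, was lower in OV at -1.51 ± 0.39 (SD, n = 4; limma, adjusted p = 0.000642), the same direction as Txnrd1. It was also called lower in SMART from 10 ng at -0.91 ± 0.33, in GA from 10 ng at -1.29 ± 0.44 and in SMART from 10 pg at -0.66 ± 0.30. Txn1 was not called in SM37 at -1.09 ± 0.57 or in IVTIII at -0.41 ± 0.34. In GA from 10 pg it was at 0.36 ± 0.66, with mixed signs and not called. Txnip, the inhibitor of thioredoxin, was higher at 1.47 ± 0.31 (limma, adjusted p = 0.000398). Prdx2, a peroxidase that thioredoxin supplies with electrons, was higher at 1.18 ± 0.18 (limma, adjusted p = 0.000255).

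In glutathione supply 3 of 13 tested genes were called, 1 higher and 2 lower, again beside 8.81% and 7.3% of all genes. Gsr (glutathione reductase) was higher in OV at 0.87 ± 0.14 (SD, n = 4; limma, adjusted p = 0.000426), and Gclc, the catalytic subunit of the first step of glutathione synthesis, was lower at -0.58 ± 0.15 (limma, adjusted p = 0.00156). Glrx (glutaredoxin) was lower at -0.87 ± 0.21 (limma, adjusted p = 0.000827). Of the 10 other antioxidant enzymes and Nrf2 genes, Hmox1 (heme oxygenase) was called, higher at 1.63 ± 0.25 (limma, adjusted p = 0.000194). Nfe2l2, which encodes Nrf2, was at -0.18 ± 0.04 (limma, adjusted p = 0.0391) and not called by the LOD. Without 1 of the arrays, 6 of the 11 called genes were called whichever array was left out (Ncl, Txn1, Txnip, Prdx2, Gsr and Hmox1). Glrx lost its call without array 4. Eefsec was called in none of these fits, and Lrp8, Gpx8 and Gclc only without array 2. Gpx8 and Gclc also lost their calls with assumed dye-swap pairs averaged.

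**Figure D4:**
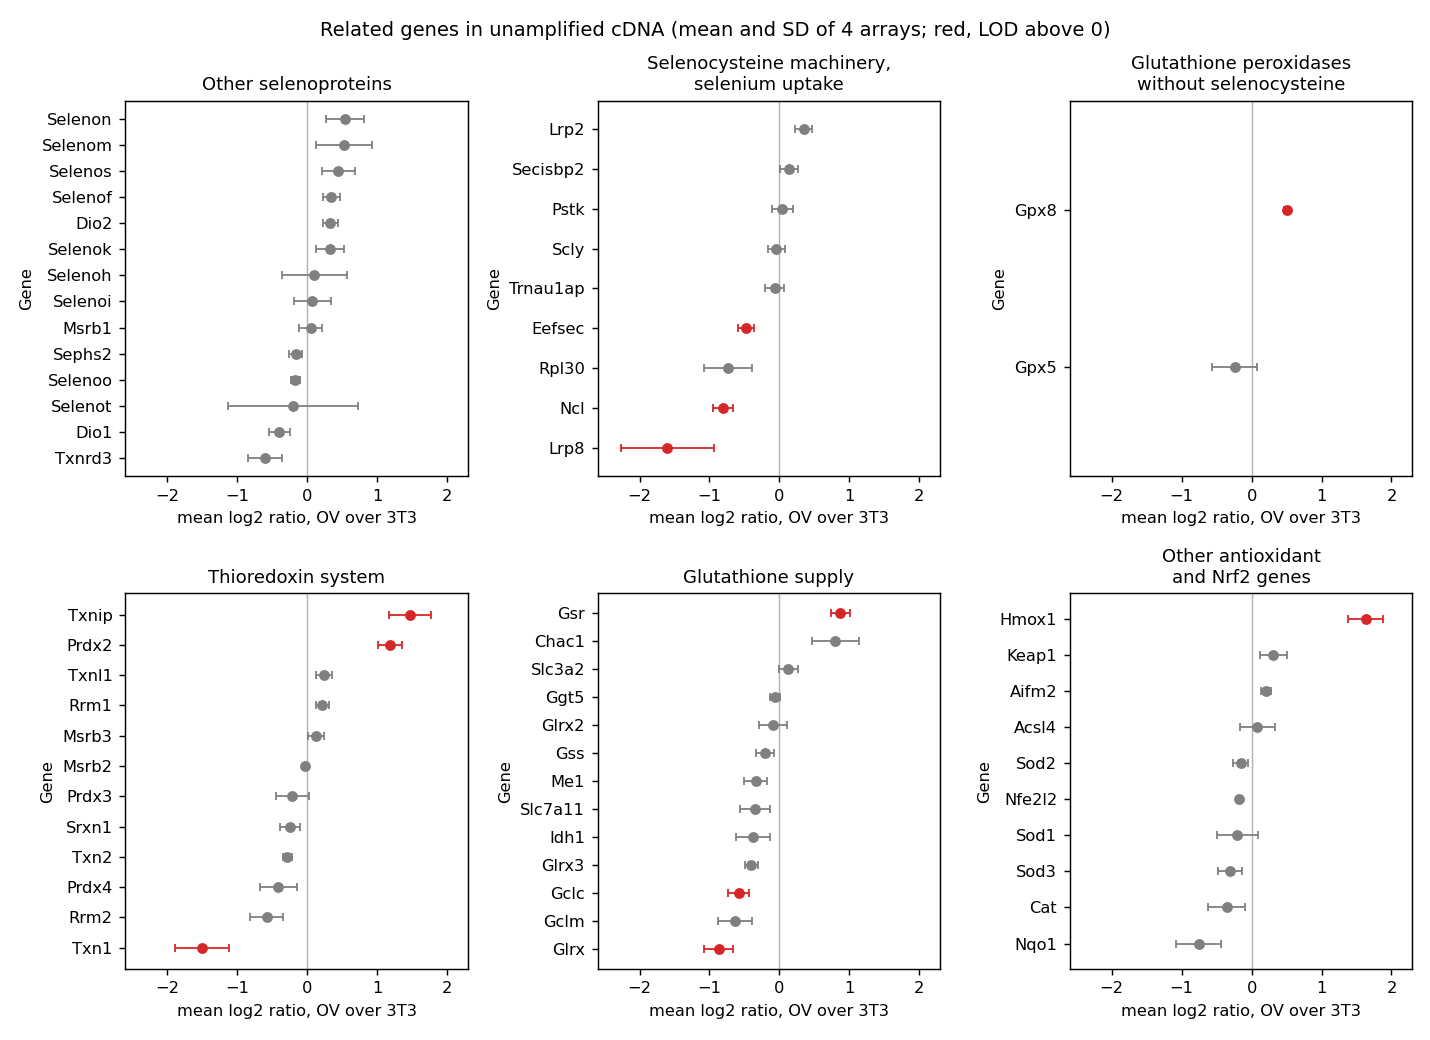
Related genes with a value on all 4 unamplified arrays, by list. The horizontal axis is the mean log2 ratio of OV over 3T3 with its SD, and red marks genes with a LOD above 0. Lrp8 and Txn1 are the lowest and Hmox1 and Txnip the highest.

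After amplification fewer of these genes could be tested. SMART from 10 ng called 4 higher and 1 lower of 42 tested, beside 2.53% and 1.01% of all genes. GA from 10 ng called 1 and 5 of 38, beside 2.09% and 6.14%, and SM37 called 1 and 4 of 32, beside 3.91% and 9.1%. IVTIII called 8 and 3 of 32, beside 11.6% and 10.4%. From 10 pg, SMART called 2 and 2 of 18, beside 6.04% and 2.93%, and GA 0 and 3 of 28, beside 2.73% and 2.71%. Selenof, a selenoprotein of the endoplasmic reticulum, was at 0.34 ± 0.12 in unamplified cDNA and at 1.12 ± 0.21 in IVTIII (SD, n = 4 each; limma, adjusted p = 0.00014 in IVTIII). Its IVTIII ratio was thus the larger, where that of Selenop was nearest to 0. Selenom was called in SMART from 10 ng at 0.45 ± 0.05, and Selenok in SMART from 10 pg at 0.54 ± 0.13. Selenok was at 0.33 ± 0.20 in unamplified cDNA and at -0.49 ± 0.24 in SM37, below 0 on all 4 SM37 arrays, and was called in neither. Selenos was called lower in GA from 10 pg at -2.31 ± 0.79, with an unamplified mean of 0.45 ± 0.24.

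The genes whose ratios followed Selenop most closely over the turned arrays of OV against 3T3 were, of 5601 with at least 20 shared arrays, Cdh3 (P-cadherin, r = 0.980 over 20 arrays), Krt19 (a keratin, 0.942 over 22), Rac2 (a small GTPase, 0.932 over 26), Smpd3 (a sphingomyelinase, 0.919 over 20) and Cxadr (a cell adhesion receptor, 0.918 over 21). These Pearson correlations run over arrays that share RNA and fall into targets, and describe likeness only. In unamplified cDNA the 5 genes had means between 2.42 for Smpd3 and 3.60 for Cxadr. In IVTIII Rac2 was the only one with 4 values, at 0.16 ± 0.23, while Cdh3 and Cxadr had none. Among the other members the correlation with Selenop was 0.336 for Gpx4, 0.312 for Gpx3, -0.299 for Txnrd1 and -0.408 for Txnrd2, and Gpx1 had too few arrays.

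**Figure D5:**
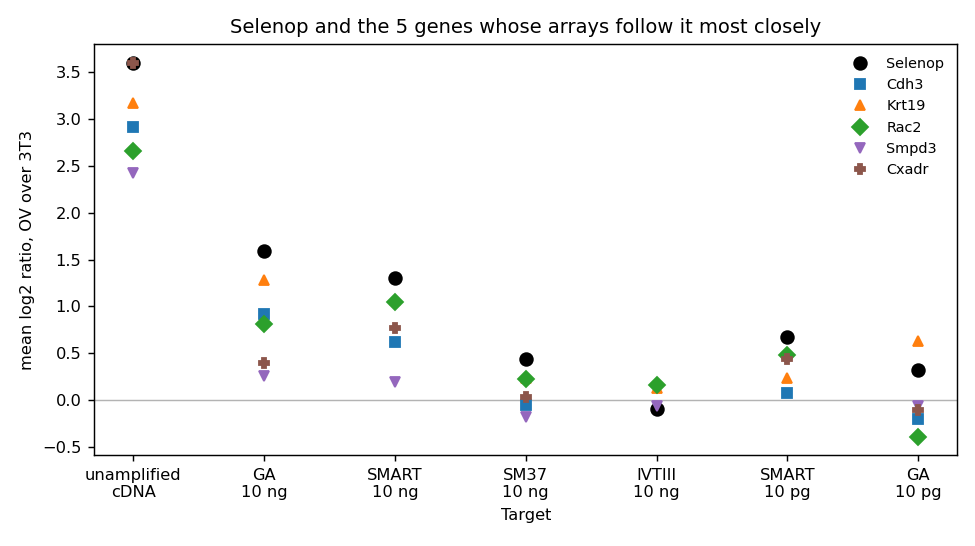
Selenop and the 5 genes most correlated with it, as mean log2 ratios of OV over 3T3 in each target with at least 1 value. All 6 genes have their highest mean in unamplified cDNA, between 2.42 and 3.60. In IVTIII Cdh3 and Cxadr have no value, Krt19 has 1 and Smpd3 has 2, and the means shown there lie near 0.

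Markers of the labelled cell types were read on the same arrays, beside 8.81% of all genes called higher in unamplified cDNA and 7.3% lower. In unamplified cDNA 7 of 10 ovarian surface epithelium markers were called higher in OV, with Upk1b, Wt1, Krt8 and Gata6 between 3.29 and 4.26, while Krt18 was lower at -0.75 and Cdh1 was at 0.14. Of 8 tested fibroblast markers Prrx1, Thy1 and S100a4 were lower in OV, at -3.33, -0.97 and -0.69, and Col1a1 and Col3a1 were higher, at 1.47 and 2.15. Of 5 tested macrophage markers Cd14 was higher, at 1.26, and of 3 tested endothelium markers none was called in limma (1 at an unadjusted p under 0.05). Ratios do not give levels, so the absence of a cell type could not be read from them. Probes with a value numbered 14198 to 18274 on unamplified arrays, 5667 to 19243 on those from 10 ng or on GA from 10 pg, and 2303 to 5137 in SMART from 10 pg.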

How the data were processed

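The authors deposited log2 ratios of the 2 channels. They subtracted background from the spot intensities and then ran a lowess normalization per print tip in limma, according to the labels and the study's methods. No intensities, depth or genome build were used, so precision is given by the number of arrays and probes with a value. Of 21997 probes 231 controls were left out, 16632 had 1 gene symbol, 139 several and 4995 none. Probes of 1 symbol were averaged to 15063 genes.

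Groups, dyes and array numbers came from the labels. Arrays with the reverse dyes had their sign turned, so that OV or replica 1 is the numerator. Where labels differ, titles and dye statements were followed, so that 1 ng SMART replicas described as 100 pg, and 10 ng targets described in micrograms, are given as titled or as in the design. Members and lists were chosen with earlier results of these data known.

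Genes with a value on all 4 arrays were fitted in limma 3.58.1 (R 4.3.3; lmFit, eBayes, prior proportion 0.01), called at a LOD above 0, with Benjamini-Hochberg adjusted p-values over all genes tested. The fit took the 4 arrays as independent, although they share RNA and, per the methods, cover 2 replicates per line with dye swaps. It was tested on simulated data. Named besides the 6 members were up to 3 called genes per direction and list in unamplified cDNA, a fixed set (Secisbp2, Sephs2, Lrp8, Txn1, Gsr, Gclc, Nfe2l2, Cdkn2a), the 5 genes most like Selenop (Pearson r, at least 20 shared arrays) and up to 4 markers per cell type list. Txnrd3, Selenon, Lrp2, Selenof, Selenom, Selenok and Selenos, and Krt18, Cdh1 and the fibroblast markers past that number, were named after their values were seen.

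Alternatives were probes complete on all arrays, medians over probes, centred or rescaled arrays, values on 3 of 4 arrays, averaged or blocked dye-swap pairs, a dye term, robust variance, a fit by probe, the adjusted p under 0.05 and leaving out each array. Dye-swap pairs (arrays 1 with 2 and 3 with 4) are assumed, since the labels give none. Promoters came from RefSeq. Plots used matplotlib 3.10.9 under Python 3.11.15.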

Additional observations from a re-analysis of the deposited data

Results flagged for a closer look

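Gpx4 on array 1 of SMART from 10 pg (0.41) stood apart from the other 3 arrays (0.14 to 0.16): the gap to its neighbour was 0.922 of the whole range. The rule takes chance to mark about 1 in 20 groups of independent arrays in this way. That rate was assumed and not measured here, and these arrays share RNA.

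Gpx4 had opposite signs on every array of some pairs of targets, above 0 in unamplified cDNA and SMART and below 0 in SM37 and GA from 10 pg. The means differed by 0.336 between unamplified cDNA and SM37, and by 1.031 between unamplified cDNA and GA from 10 pg. From SMART at 10 ng they differed by 0.347 in SM37 and by 1.042 in GA from 10 pg. From SMART at 10 pg they differed by 0.323 in SM37 and by 1.018 in GA from 10 pg. Over 4002 genes, GA from 10 pg correlated with unamplified cDNA at only -0.0601. Of 258 genes over 2-fold in unamplified cDNA, in either direction, 39.1% kept their sign there. An opposite sign in GA from 10 pg is thus not particular to Gpx4.

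Txnrd2 was above 0 on every array of GA from 10 ng and below 0 on every array of unamplified cDNA, with means 0.591 apart. These differences between targets were not tested, since the ratios chose the members.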

How the results depend on the processing

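The mean log2 ratios of the members with an SD moved by less than that SD under every alternative that gave a value. This was largely fixed in advance. Leaving out 1 of so few arrays cannot move a mean by its SD, and probe settings cannot move a gene with 1 probe. It is therefore no sign of stability. The counts of called genes did move. With assumed dye-swap pairs averaged, called members fell to 1 in unamplified cDNA, 1 in SMART, 1 in GA and 0 in SM37, and rose to 1 in SMART from 10 pg, while related genes called became 3 in SMART, 2 in GA, 3 in SM37, 1 in SMART from 10 pg and 0 in GA from 10 pg. At an adjusted p under 0.05 in place of the LOD, 17 related genes were higher and 22 lower of 60 tested in unamplified cDNA. From 10 ng 8 of 42 passed in SMART, 13 of 38 in GA, 19 of 32 in SM37 and 20 of 32 in IVTIII. From 10 pg 7 of 18 passed in SMART and 6 of 28 in GA. Of all genes, 4973 of 10185 passed in unamplified cDNA, 523 of 7405 in SMART and 1525 of 5458 in GA. In SM37 2483 of 5779 passed and in IVTIII 2221 of 3972. From 10 pg these were 386 of 1159 in SMART and 756 of 4426 in GA. Members passing were 4 in unamplified cDNA, with Txnrd2 besides those called by the LOD, and 3 in SM37, with Selenop besides. From 10 pg they were 2 in SMART (Selenop and Gpx4) and 1 in GA (Gpx4). In SMART, GA and IVTIII from 10 ng the members passing were those called by the LOD. A dye term gave 2 related genes in GA and 1 in GA from 10 pg, and 1 member each in SM37 and SMART from 10 pg. Dye-swap pairs as a random block gave 11 related genes lower in unamplified cDNA, 2 in GA and 0 in GA from 10 pg, and 1 member in SMART from 10 pg. The shares of all genes called with averaged or blocked pairs, a dye term or an array left out are not given here. Counts under these settings are therefore not read as a result about the related genes or the members.

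Without 1 array, members called ranged from 1 to 2 in unamplified cDNA (1 without array 1, 3 or 4), 1 to 2 in SMART (1 without array 2, 3 or 4), 1 to 2 in SM37 (1 without array 2, 3 or 4) and 0 to 1 in SMART from 10 pg (1 without array 1). Related genes called ranged from 4 to 6 higher and 3 to 6 lower in unamplified cDNA, 2 to 5 in SMART, 2 to 4 in GA, 2 to 6 in SM37, 9 to 10 in IVTIII, 2 to 3 in SMART from 10 pg and 0 to 3 in GA from 10 pg. The cause of these changes was not tested. OV and 3T3 share each array, so each log2 ratio is already a paired difference within that array, and the fit used these ratios. Beyond this, no paired analysis was possible because array numbers pair no samples across groups of arrays. The averaged or blocked dye-swap pairs group arrays within a comparison and are assumed. The fitted correlation within them was 0.454 in GA from 10 pg, 0.334 in GA, 0.171 in SM37 and 0.0754 in IVTIII, and -0.102 in SMART, -0.209 in unamplified cDNA and -0.273 in SMART from 10 pg. Each member rests on 1 probe, intensities over background were not used here, and the arrays share RNA, so the spread leaves out that between cultures.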
